A study of Mus musculus with 5 samples.

Results

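Single-cell RNA-seq of 5 synovial sarcoma (SyS) tumours from mice was used to describe the Wnt ligands, the Frizzled receptors with the co-receptors Lrp5 and Lrp6, and the secreted Wnt antagonists. The genes were chosen by symbol alone, as any Wnt, Fzd, Sfrp or Dkk gene together with Frzb, Wif1, Lrp5 and Lrp6. This gave 41 of the 32286 features in the count matrices, namely 19 ligands, 10 Frizzled receptors, 2 co-receptors and 10 antagonists. All 5 tumours came from hSS2 mice, which carry a conditional human SS18::SSX2 fusion, the oncogene of this sarcoma, at the Rosa26 locus. Injection of TATCre, a cell-permeable recombinase, in the limb activated it, so any cell that took up the enzyme could be the origin, and tissue was taken when the animals became morbid. The labels gave BP (biphasic, with an epithelial component beside spindle cells) for 2 tumours, here BP 1 and BP 2, and MP (monophasic, spindle cells alone), MP+BP and PD+MP (PD, poorly differentiated) for 1 tumour each. No tumour-free limb was among the samples, and ages were not given in the labels. Both BP tumours carry the same leading number in their titles, and the sources do not say if a single animal bore them. For MP, MP+BP and PD+MP there is no replicate error.

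Wnt ligands are lipid-modified secreted proteins that act mostly over short distances. In the canonical branch a ligand bridges a Frizzled receptor and Lrp5 or Lrp6, which stops the destruction of beta-catenin and lets it act with TCF/LEF factors on target genes. Other ligands, with Wnt5a as the best known, signal mainly through Frizzled, Ror1 or Ror2 on cell polarity and movement. Sfrp proteins, Frzb and Wif1 bind ligands outside the cell, while Dkk1, Dkk2 and Dkk4 bind Lrp5 and Lrp6. In the developing limb the pathway patterns the skeleton and connective tissue, and in endothelium it governs vessel growth and barrier formation. Beta-catenin signalling is a known feature of synovial sarcoma.

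After filtering, 39559 of 51670 called cells (76.6%) were used, with a median of 6340 to 8536 UMIs (unique molecular identifiers, each standing for 1 captured RNA molecule) per cell in the 5 tumours. Total UMI counts of the called cells were 89996321 to 118649103 per tumour. Between 15 and 33 cell barcodes were shared by any pair of tumours, at most 0.302% of the smaller one. Clusters were named from marker genes, with all 41 genes and the other pathway genes kept out of the clustering. SyS-like cells (named from markers such as Sox2, Zic1 and Tle1) numbered 28628, macrophage-like cells 3870, endothelial-like cells 2428 and pericyte-like cells 1252. In PD+MP the endothelial-like and pericyte-like cells were few, at 81 and 38. Levels are given as CPM, the share of a gene in the UMIs summed over a class in a tumour, scaled to the usual common total. A 3′ library counts molecules irrespective of transcript length, so levels of different genes are compared without length scaling, and capture near the 3′ end can still differ between genes. Free RNA from lysed tumour cells gives UMIs in any droplet. As a yardstick, the SyS naming markers in macrophage-like cells had a median of 1.92% to 5.97% of their SyS-like level across the tumours, in endothelial-like cells 1.96% to 6.63%, and in pericyte-like cells 1.84% to 12.4%, with single markers as high as 78.5% in pericyte-like cells of MP+BP.

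The first question was which cells carried the genes. SyS-like cells led in mean level for most of the genes with enough UMIs to describe. Of the 38 genes with at least 100 UMIs, 30 had their highest mean level in SyS-like cells, 5 in endothelial-like and 3 in pericyte-like cells, and none in macrophage-like cells, when these 4 classes were compared. The matching share over all genes was not counted. SyS-like cells, 72.4% of the cells used, also weigh most in the cut of 100 UMIs, so the 30 are a description. Against pericyte-like cells of the same tumours, SyS-like cells were higher for 19 and lower for 2 of the 41 genes, with 36 tested (edgeR quasi-likelihood test on summed counts with the tumour as a block, Benjamini-Hochberg adjusted p under 0.05, 5 pairs). Log2 fold changes here use TMM scaling of the sums, and so can differ from the ratio of plain CPM. Of all genes tested, 21.0% were higher and 15.4% lower. With the SyS-like sums thinned to the depth of the pericyte-like sums, 11 of the genes were higher and 2 lower, beside 20% and 21.9% of all genes. Fewer genes passed the filter there (9476 instead of 17932), and no call was lost for a gene still tested. With fibroblast-like cells added to the pericyte-like sums, 16 were higher and 3 lower, beside 16.4% and 13.1%, and the calls for Wnt11, Fzd2 and Lrp6 were lost (log2 0.51, 0.82 and 0.45, edgeR adjusted p = 0.504, 0.149 and 0.062). Against endothelial-like cells 25 were higher and 4 lower of 36 tested, beside 30.3% and 22.8% of all genes. Against macrophage-like cells 29 were higher and 1 was lower of 34 tested, beside 36.7% and 26.8% of all genes. The single lower gene was Lrp6. The median log2 fold change of the genes tested was 1.43, 1.96 and 3.34 in the 3 comparisons, beside 0.18, 0.17 and 0.24 over all genes. With genes at 0 UMIs in the other class set to their lower bound, the medians were 1.37, 1.95 and 3.28. A gene that passed the filter on low counts only through its level in SyS-like cells had to differ, so these counts are a description of the set. The same holds for the fold change and p-value of a single gene with few UMIs in the other class, here and below.

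Between the vascular classes, 7 of the 41 genes were higher and 5 lower in pericyte-like than in endothelial-like cells, with 15 tested, beside 23.3% and 22.7% of all genes. Classes and levels come from the same cells, and the tests take the class names as given.

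**Figure D1:**
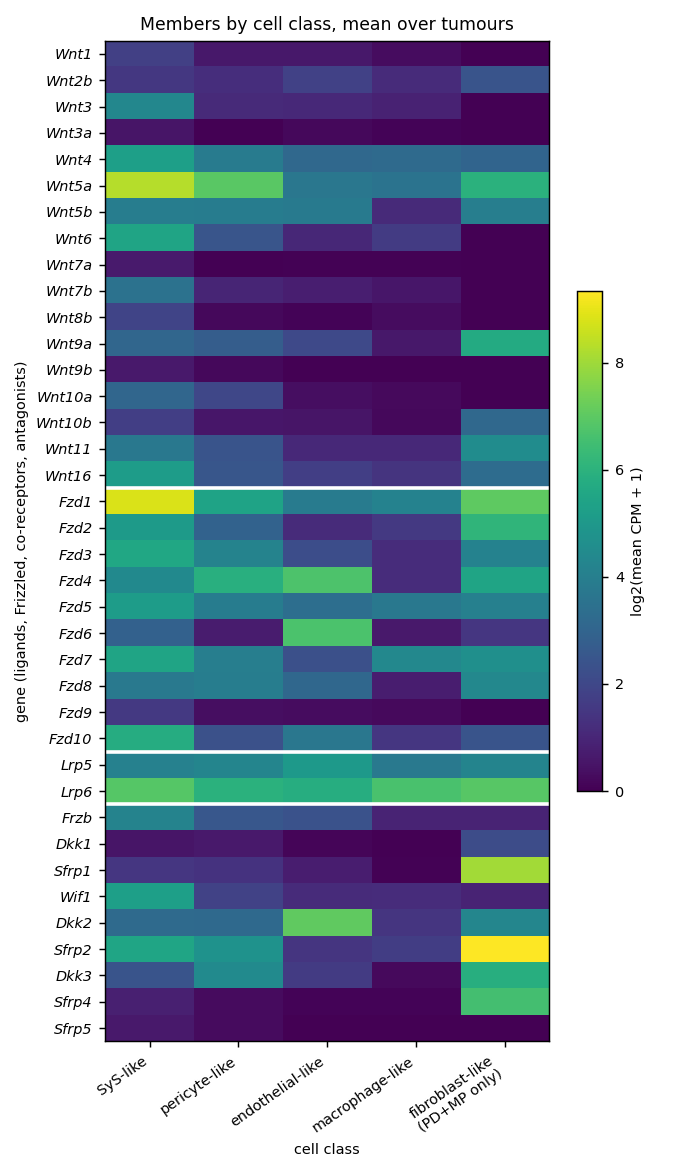
Mean level of the 38 genes with at least 100 UMIs (rows, by role) in SyS-like, pericyte-like, endothelial-like and macrophage-like cells (mean of 5 tumours) and in fibroblast-like cells (PD+MP alone), as log2 of CPM plus 1. Wnt5a and Fzd1 were highest in SyS-like cells, Fzd4, Fzd6 and Dkk2 in endothelial-like cells, and Sfrp1 and Sfrp2 in fibroblast-like cells.

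Ligand RNA was concentrated in SyS-like cells. The summed level of the 19 ligands in SyS-like cells was 623 (BP 1), 577 (BP 2), 375 (MP), 751 (MP+BP) and 255 CPM (PD+MP), a mean of 516 ± 199 (SD, n = 5). In pericyte-like cells it was 178 ± 64.5, in endothelial-like cells 47.2 ± 17.0 and in macrophage-like cells 29.3 ± 10.4 CPM. The lowest SyS-like sum, in PD+MP, was above the highest pericyte-like sum of 245.7 CPM. The 2101 cells whose clusters stayed unnamed had 446 ± 156 CPM. Of the smaller classes, fibroblast-like cells of PD+MP had 217 CPM. Neutrophil-like cells, with a median of 1887 UMIs, had 184 ± 44.1 CPM (SD, n = 3), near the pericyte-like mean. Of the ligands, 8 of 15 tested were higher in SyS-like than in pericyte-like cells, 13 of 16 than in endothelial-like cells and 14 of 16 than in macrophage-like cells (edgeR). Of all genes tested, 21.0%, 30.3% and 36.7% were higher.

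Wnt5a, the main non-canonical ligand and a driver of limb outgrowth, made up 53.2% to 73.6% of the ligand sum in SyS-like cells. Its level was 338 (BP 1), 319.8 (BP 2), 242 (MP), 553 (MP+BP) and 136 CPM (PD+MP), and 75.9% of SyS-like cells held a UMI. Every tumour lay above its own pericyte-like cells, which were second among the 4 classes at 178 (BP 1), 166 (BP 2), 77.1 (MP), 111 (MP+BP) and 82.3 CPM (PD+MP). The log2 fold change over pericyte-like cells was 1.10 ± 0.21, adjusted p = 0.00148 (edgeR, SE, higher in 5 of 5 tumours). Endothelial-like cells had 12.0 ± 7.13 and macrophage-like cells 10.9 ± 7.78 CPM (SD, n = 5), which was a median of 2.98% and 2.78% of the SyS-like level of the same tumour and within the free-RNA yardstick. Pericyte-like cells, at a median of 52.0%, lay above the yardstick's median in every tumour, although single markers reached more than Wnt5a did in BP 2, MP and MP+BP (up to 53.4%, 62.8% and 78.5%). Pericyte-like cells also exceeded endothelial-like cells directly (3.41 ± 0.21, adjusted p = 2.65e-08, edgeR). Wnt5a lies at chr14:28504750-28527448 on mm10 and overlaps Gm2670 on the opposite strand.

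Wnt4, Wnt6, Wnt16 and Wnt3 formed the next tier in SyS-like cells. Wnt6, a ligand of ectoderm and the early limb, stood at 71.2 (BP 1), 68.8 (BP 2), 26.0 (MP), 38.1 (MP+BP) and 11.1 CPM (PD+MP) in SyS-like cells and at 0 to 9.25 CPM in pericyte-like cells, with no overlap. The log2 fold change was 3.07 ± 0.35, adjusted p = 2.08e-05 over pericyte-like and 5.17 ± 0.30, adjusted p = 8.75e-07 over endothelial-like cells (edgeR). Wnt3, a canonical ligand needed for limb ridge formation, was at 30.7 (BP 1), 34.6 (BP 2), 5.13 (MP), 17.4 (MP+BP) and 8.34 CPM (PD+MP). In endothelial-like cells it ranged over 0 to 3.90 CPM and in pericyte-like cells over 0 to 2.84 CPM, and the log2 fold changes were 3.9995 ± 0.39 and 3.76 ± 0.38 (SE). In a tumour, pericyte-like cells held at most 9 Wnt6 and 2 Wnt3 UMIs, and endothelial-like cells at most 11 and 14. The differences of Wnt6 and Wnt3 are therefore a description. Wnt16, a ligand known from bone and joint tissue, was at 46.0 (BP 1), 20.3 (BP 2), 12.3 (MP), 38.7 (MP+BP) and 58.7 CPM (PD+MP), 2.27 times as high in BP 1 as in BP 2. Its log2 fold change over pericyte-like cells was 2.51 ± 0.33, adjusted p = 6.75e-05 (edgeR).

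Wnt4 was spread more widely. SyS-like cells had 53.2 (BP 1), 54.7 (BP 2), 34.6 (MP), 33.4 (MP+BP) and 12.8 CPM (PD+MP), pericyte-like cells 7.84 to 24.7, endothelial-like cells 1.72 to 10.6 and macrophage-like cells 5.65 to 10.9 CPM. SyS-like cells were higher in every tumour, by log2 1.22 ± 0.28, 1.96 ± 0.24 and 1.46 ± 0.24 over these 3 classes (adjusted p = 0.00399, 0.000117 and 0.000323, edgeR). The macrophage-like level was 14.6% to 44.0% of the SyS-like level, above the medians of the yardstick. It lay within the range of single markers of the same tumour in BP 1, BP 2 and MP. In MP+BP and PD+MP it lay above every single marker (at most 23.7% and 20.3%).

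The remaining ligands were lower. Wnt7b, Wnt10a and Wnt11 reached 10.4, 7.48 and 12.5 CPM on average in SyS-like cells, with log2 fold changes of 3.62 ± 0.33, 4.37 ± 0.49 and 2.94 ± 0.37 over endothelial-like cells. In a tumour, endothelial-like cells held at most 6 Wnt7b, 3 Wnt10a and 9 Wnt11 UMIs, and 0 of each in PD+MP. These genes passed the filter there through SyS-like cells, so the folds are a description. Against pericyte-like cells Wnt10a did not pass the threshold (1.48 ± 0.55, adjusted p = 0.0526, edgeR), and Wnt11 did (1.41 ± 0.44, adjusted p = 0.0247, edgeR), a call lost without BP 1, BP 2 or MP (largest adjusted p = 0.112, edgeR). Wnt8b, best known from the forebrain, had 1.95 (BP 1), 1.27 (BP 2), 7.84 (MP), 2.31 (MP+BP) and 0.548 CPM (PD+MP), highest in MP, and was above all 3 classes (log2 3.55 ± 0.77, 5.59 ± 0.83 and 2.99 ± 0.60), a call against pericyte-like cells that was lost without MP (adjusted p = 0.0567, edgeR). Pericyte-like cells held 2 Wnt8b UMIs (MP), endothelial-like cells 1 (MP+BP), and macrophage-like cells 2 in BP 1 and 3 in MP. Wnt8b thus passed the filter through SyS-like cells, and its differences are a description. Wnt1 and Wnt10b had means of 2.43 ± 1.51 and 2.29 ± 1.45 CPM (SD, n = 5), higher than in endothelial-like and macrophage-like cells (log2 1.82 ± 0.49 and 1.94 ± 0.54 over endothelial-like cells, the latter lost without BP 1) and not called against pericyte-like cells (adjusted p = 0.0538 and 0.0775, edgeR). In a tumour, endothelial-like cells held at most 8 Wnt1 and 5 Wnt10b UMIs, and macrophage-like cells at most 4 and 2. The differences of both genes are therefore a description too. Wnt3a, Wnt7a and Wnt9b did not exceed 1.082 CPM in SyS-like cells of any tumour. Wnt7a had 0 UMIs in pericyte-like cells, which bounds the fold at no less than 1.18 (3 counts over the class as the floor), and Wnt9b had 0 in endothelial-like and in macrophage-like cells, where SyS-like cells were at least 3.30-fold and 4.33-fold higher. These floors cover counting error only.

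Wnt5b, Wnt9a and Wnt2b were spread over tumour and vascular cells. Wnt5b, a non-canonical ligand, was at 18.2 (BP 1), 14.7 (BP 2), 17.9 (MP), 16.0 (MP+BP) and 5.97 CPM (PD+MP) in SyS-like cells and at 22.1 (BP 1), 16.7 (BP 2), 7.93 (MP), 9.42 (MP+BP) and 10.3 CPM (PD+MP) in endothelial-like cells, and the groups overlapped. The log2 difference was -0.02 ± 0.26 (95% interval -0.61 to 0.58) from endothelial-like and 0.18 ± 0.43 (-0.75 to 1.12) from pericyte-like cells. Macrophage-like cells had 0.628 to 1.85 CPM. Wnt9a, a ligand of joint formation, was at 7.41 ± 1.24 CPM in SyS-like and 5.81 ± 4.36 CPM in pericyte-like cells (SD, n = 5), a log2 difference of -0.04 ± 0.39 (-0.89 to 0.82), and was higher than in endothelial-like cells (1.01 ± 0.34, adjusted p = 0.0303, edgeR), which was lost without BP 2, MP or MP+BP (adjusted p = 0.0796, 0.132 and 0.0512, edgeR). Wnt2b was higher in endothelial-like cells in 5 of 5 tumours, at 2.53 ± 0.808 against 1.86 ± 0.505 CPM (SD, n = 5), without passing the threshold (log2 -0.74 ± 0.30, adjusted p = 0.0606, edgeR).

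Receptor RNA was present in all 4 classes, led by Fzd1 in SyS-like cells and by Fzd4 or Fzd6 in endothelial-like cells. The summed level of the 10 Frizzled genes was 696 ± 47.1 CPM in SyS-like cells, 260.2 ± 25.5 in endothelial-like, 172 ± 18.3 in pericyte-like and 56.2 ± 6.56 in macrophage-like cells (SD, n = 5), and the ranges of these 4 classes over the tumours did not overlap. Of the smaller classes, neutrophil-like cells had 337 ± 230 CPM (SD, n = 3) and fibroblast-like cells of PD+MP 323 CPM. In SyS-like cells the Frizzled sum varied less over tumours than the ligand sum, 646 to 750.3 against 255 to 751 CPM. Of the 10 Frizzled genes, 8 were higher and 1 lower in SyS-like than in pericyte-like cells, 6 higher and 2 lower than in endothelial-like cells, and all 10 higher than in macrophage-like cells. Of all genes, 21.0%, 30.3% and 36.7% were higher and 15.4%, 22.8% and 26.8% lower in these comparisons.

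Fzd1, a receptor of canonical and non-canonical ligands, was the leading Frizzled of SyS-like cells and the most abundant of the 41 genes. Its level was 452 (BP 1), 381 (BP 2), 515 (MP), 416 (MP+BP) and 454 CPM (PD+MP) and differed at most 1.35-fold between tumours. It took 59.0% to 68.6% of the Frizzled sum, and 85.8% of SyS-like cells held a UMI. Pericyte-like cells had 34.4 (BP 1), 38.3 (BP 2), 30.2 (MP), 76.0 (MP+BP) and 27.4 CPM (PD+MP). The log2 fold change was 3.24 ± 0.24, adjusted p = 7.12e-07 over pericyte-like, 4.81 ± 0.24, adjusted p = 3.66e-07 over endothelial-like and 4.16 ± 0.17, adjusted p = 8.26e-09 over macrophage-like cells (edgeR, higher in 5 of 5 tumours each). The macrophage-like and endothelial-like levels were a median of 3.80% and 3.02% of the SyS-like level, inside the yardstick, and the pericyte-like level was 7.62%.

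Fzd10, Fzd3, Fzd7, Fzd5 and Fzd2 followed in SyS-like cells. Fzd10, a receptor with little expression in most adult tissue, was at 78.4 (BP 1), 79.7 (BP 2), 28.4 (MP), 38.0 (MP+BP) and 45.2 CPM (PD+MP) in SyS-like cells, at 5.89 to 18.9 CPM in endothelial-like and at 0 to 9.94 CPM in pericyte-like cells. It was higher by log2 3.49 ± 0.29 than in pericyte-like and 1.96 ± 0.24 than in endothelial-like cells, and lower in pericyte-like than in endothelial-like cells (-1.46 ± 0.41, adjusted p = 0.0101, edgeR, lost without MP). Fzd3 and Fzd2, both linked to non-canonical signalling, averaged 46.2 ± 4.94 and 32.7 ± 11.5 CPM (SD, n = 5) and were higher than in pericyte-like cells by log2 1.26 ± 0.20 and 1.95 ± 0.26, the latter call lost with fibroblast-like cells added to the comparator. Fzd3 was also higher in pericyte-like than in endothelial-like cells (2.39 ± 0.27, adjusted p = 7.85e-06, edgeR), at 17.1 against 3.63 CPM.

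Fzd7 and Fzd5 came closest in macrophage-like cells to their SyS-like level. Fzd7 stood at 44.9 (BP 1), 55.3 (BP 2), 33.2 (MP), 43.6 (MP+BP) and 38.3 CPM (PD+MP) in SyS-like and 17.3 (BP 1), 23.7 (BP 2), 20.8 (MP), 14.4 (MP+BP) and 20.7 CPM (PD+MP) in macrophage-like cells, a log2 difference of 0.55 ± 0.17, adjusted p = 0.0141 (edgeR, higher in 5 of 5 tumours). Fzd5 stood at 34.99 ± 9.69 and 12.4 ± 2.83 CPM (SD, n = 5), a difference of 0.86 ± 0.19, adjusted p = 0.00203 (edgeR). The macrophage-like levels were 33.0% to 62.7% and 26.3% to 50.04% of the SyS-like level, above the yardstick medians. The other 8 Frizzled genes had medians of 2.78% to 8.04% there. In BP 1, BP 2 and PD+MP Fzd7 led the Frizzled genes of macrophage-like cells, and in MP and MP+BP Fzd1 did. The call for Fzd7 was lost without BP 1 or without MP+BP (edgeR adjusted p = 0.0546 and 0.0527).

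Fzd4 and Fzd6 were highest in endothelial-like cells. Fzd4, the receptor of the vascular ligand norrin, was at 101 (BP 1), 85.6 (BP 2), 102 (MP), 115 (MP+BP) and 118 CPM (PD+MP) in endothelial-like and 60.2 (BP 1), 46.9 (BP 2), 69.8 (MP), 48.3 (MP+BP) and 66.6 CPM (PD+MP) in pericyte-like cells. In SyS-like cells it was at 13.0 (BP 1), 7.82 (BP 2), 13.9 (MP), 7.29 (MP+BP) and 61.6 CPM (PD+MP), so that PD+MP stood 4.45 times above the next tumour. The log2 fold change of SyS-like cells was -3.13 ± 0.42, adjusted p = 0.000193 over endothelial-like and -2.31 ± 0.33, adjusted p = 0.00013 over pericyte-like cells (edgeR, lower in 5 of 5 tumours each). Pericyte-like cells were lower than endothelial-like cells (-0.79 ± 0.14, adjusted p = 0.000469, edgeR). Fzd6, which acts in planar polarity, was at 116 (BP 1), 120.4 (BP 2), 69.4 (MP), 103 (MP+BP) and 109.8 CPM (PD+MP) in endothelial-like, 5.39 to 8.75 in SyS-like and 0 to 1.82 CPM in pericyte-like cells. The log2 fold change of SyS-like over endothelial-like cells was -4.20 ± 0.16, adjusted p = 9.9e-08, and that of pericyte-like over endothelial-like cells -6.44 ± 0.36, adjusted p = 8.18e-09 (edgeR). Endothelial-like cells stood above both other classes in every tumour.

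Fzd8 was not called between SyS-like cells and either vascular class. Its levels in SyS-like, pericyte-like and endothelial-like cells were 12.5 ± 4.58, 14.7 ± 5.92 and 7.76 ± 0.631 CPM (SD, n = 5). The log2 difference of SyS-like from pericyte-like cells was -0.46 ± 0.24 (95% interval -0.99 to 0.07) and from endothelial-like cells 0.45 ± 0.21 (-0.03 to 0.93), and neither passed the threshold. Fzd8 was higher in pericyte-like than in endothelial-like cells (1.02 ± 0.25, adjusted p = 0.00468, edgeR). Fzd9 was low at 3.82 (BP 1), 4.56 (BP 2), 0.397 (MP), 0.449 (MP+BP) and 0.267 CPM (PD+MP) in SyS-like cells, and the BP tumours stood above the others. It passed the test against pericyte-like (3.03 ± 0.9994, adjusted p = 0.0319, edgeR) and macrophage-like cells (2.51 ± 0.77, adjusted p = 0.0146, edgeR), and both calls were lost without BP 1 (edgeR adjusted p = 0.194 and 0.109). The pericyte-like side held 1 Fzd9 UMI, in BP 2, and the macrophage-like side 2 in BP 1, 1 in BP 2 and 2 in PD+MP. Both folds therefore rest on the SyS-like side and are a description.

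The co-receptors were the most evenly spread. Lrp6 had 123 (BP 1), 114 (BP 2), 95.01 (MP), 104 (MP+BP) and 140.1 CPM (PD+MP) in SyS-like cells and 91.0 (BP 1), 118 (BP 2), 87.2 (MP), 101 (MP+BP) and 99.8 CPM (PD+MP) in macrophage-like cells, which ranged from 71.3% to 104% of the SyS-like level, far above the yardstick. SyS-like cells were higher than pericyte-like (0.66 ± 0.16, adjusted p = 0.00731) and endothelial-like cells (0.80 ± 0.18, adjusted p = 0.00392, edgeR) and lower than macrophage-like cells (-0.39 ± 0.14, adjusted p = 0.0293, edgeR). This last direction rests on the scaling, since with total counts only the log2 fold change was 0.21 (edgeR adjusted p = 0.184), and the call was lost without BP 2, MP or MP+BP (edgeR adjusted p = 0.113, 0.068 and 0.0965). Lrp5 was highest in endothelial-like cells, at 26.9 (BP 1), 21.2 (BP 2), 30.3 (MP), 34.1 (MP+BP) and 42.9 CPM (PD+MP), against 17.3 (BP 1), 15.8 (BP 2), 17.3 (MP), 16.6 (MP+BP) and 14.9 CPM (PD+MP) in SyS-like cells. SyS-like cells were lower in 5 of 5 tumours (-1.09 ± 0.18, adjusted p = 0.000752, edgeR), as were pericyte-like cells in 4 of 5 (-0.69 ± 0.21, adjusted p = 0.0178, edgeR), a call lost without BP 1, MP or MP+BP.

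**Figure D2:**
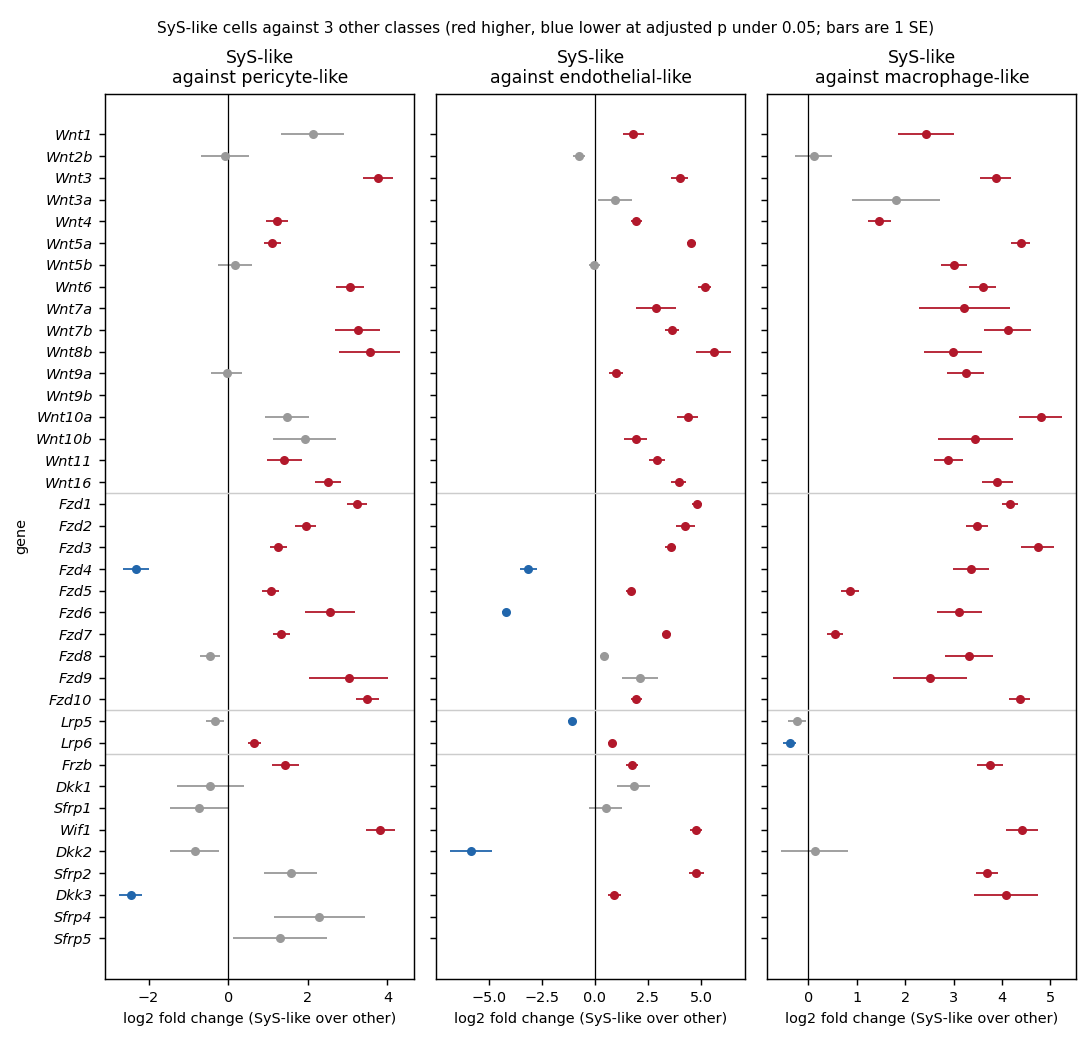
Log2 fold change (points) with its SE (bars) of SyS-like cells over pericyte-like, endothelial-like and macrophage-like cells of the same tumours, from edgeR. Genes that did not pass the filter and genes with 0 UMIs in the other class are left out. Of the called genes, Fzd4 and Dkk3 lie left of 0 against pericyte-like cells, and Fzd4, Fzd6, Lrp5 and Dkk2 lie left of 0 against endothelial-like cells, with Lrp6 alone against macrophage-like cells, a direction that turned with scaling by total counts only.

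Antagonists also differed between the classes. In SyS-like cells the 10 antagonists summed to 108 (BP 1), 126 (BP 2), 89.5 (MP), 216 (MP+BP) and 39.2 CPM (PD+MP), led by Wif1 in both BP tumours, Sfrp2 in MP and MP+BP, and Frzb in PD+MP. Wif1, which binds Wnt proteins through its WIF domain, was at 51.3 (BP 1), 54.3 (BP 2), 10.1 (MP), 67.0 (MP+BP) and 7.19 CPM (PD+MP) in SyS-like cells and at 0 to 6.17 CPM in pericyte-like, 0 to 3.07 in endothelial-like and 0 to 2.72 CPM in macrophage-like cells. Within each tumour SyS-like cells were higher, by log2 3.82 ± 0.37, adjusted p = 5.24e-06 over pericyte-like and 4.77 ± 0.29, adjusted p = 1.26e-06 over endothelial-like cells (edgeR). In a tumour, pericyte-like cells held at most 6 and endothelial-like cells at most 11 Wif1 UMIs, and both held 0 in PD+MP. Wif1 thus passed the filter through SyS-like cells, and these differences are a description. Frzb, an Sfrp-type binder known from cartilage, was at 16.8 (BP 1), 14.1 (BP 2), 18.8 (MP), 20.02 (MP+BP) and 15.8 CPM (PD+MP) in SyS-like cells, the most even of the antagonists, and was above pericyte-like cells by 1.44 ± 0.33, adjusted p = 0.00445 (edgeR). Sfrp2 was at 29.9 (BP 1), 47.3 (BP 2), 47.8 (MP), 85.1 (MP+BP) and 11.04 CPM (PD+MP) in SyS-like cells. In pericyte-like cells it was at 0.782 (BP 1), 101 (BP 2), 2.91 (MP), 24.7 (MP+BP) and 0 CPM (PD+MP), so BP 2 alone exceeded its own SyS-like cells, and the difference was not called (1.57 ± 0.66, adjusted p = 0.0822, edgeR). Over endothelial-like and macrophage-like cells it was (log2 4.78 ± 0.35 and 3.68 ± 0.22).

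Dkk2 led the antagonists of endothelial-like cells, and Dkk3 was highest in pericyte-like cells among the 4 classes. Endothelial-like cells had 108 (BP 1), 223 (BP 2), 58.1 (MP), 78.6 (MP+BP) and 196 CPM (PD+MP), 85.7% to 97.4% of their antagonist sum, and 26.2% of them held a UMI. SyS-like cells had 0.989 (BP 1), 1.74 (BP 2), 3.07 (MP), 35.4 (MP+BP) and 0.786 CPM (PD+MP). The log2 fold change of SyS-like over endothelial-like cells was -5.83 ± 0.98, adjusted p = 0.000801, and of pericyte-like over endothelial-like cells -3.81 ± 0.35, adjusted p = 9.91e-07 (edgeR, lower in 5 of 5 tumours each). MP+BP was the exception among SyS-like cells, 11.5 times above the next tumour and still below its own endothelial-like cells. Dkk3, a Dkk relative that does not act through Lrp6 in the usual way, led the antagonists of pericyte-like cells in BP 1, MP and PD+MP and had levels of 27.4 (BP 1), 17.0 (BP 2), 18.2 (MP), 18.5 (MP+BP) and 23.5 CPM (PD+MP) in that class against 4.19 (BP 1), 3.76 (BP 2), 7.11 (MP), 4.12 (MP+BP) and 2.94 CPM (PD+MP) in SyS-like cells. Its log2 fold change was -2.44 ± 0.29, adjusted p = 3.19e-05 in SyS-like over pericyte-like and 3.29 ± 0.33, adjusted p = 2.17e-06 in pericyte-like over endothelial-like cells (edgeR), and pericyte-like cells of every tumour lay above both other classes.

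Fibroblast-like cells, of which 123 of 149 were in PD+MP, had the highest antagonist levels of any class, with no replicate. In PD+MP their Sfrp2 was at 646 CPM against 11.04 CPM in its tumour cells, Sfrp1 at 263 against 0.337, and Sfrp4 at 92.7 against 0.421 CPM. These 3 genes encode secreted Frizzled-like decoys known from connective tissue. Fibroblast-like cells also held Wnt2 (47 of its 66 UMIs over all kept cells), Wnt9a at 51.2 CPM and Fzd2 at 68.8 CPM, where the tumour cells had 5.76 and 36.6 CPM. Sfrp1 in SyS-like cells was at 3.39 (BP 1), 3.52 (BP 2), 0.278 (MP), 1.31 (MP+BP) and 0.337 CPM (PD+MP), Sfrp4 at 0.220 to 1.67 CPM and Dkk1 at 0.197 to 0.898 CPM, none of them called against pericyte-like cells (adjusted p = 0.483, 0.14 and 0.732, edgeR). Sfrp5 was at 0.331 to 0.721 CPM, with 0 UMIs in endothelial-like and macrophage-like cells, where SyS-like cells were at least 3.25-fold and 4.27-fold higher. Below 100 UMIs in all kept cells were Wnt2 with 66, Wnt8a with 43 and Dkk4 with 28.

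The promoters of Fzd1 and Wif1, higher in SyS-like than in endothelial-like cells, and of Fzd4 and Dkk2, higher in endothelial-like than in SyS-like cells, are shown as the 250 bases before the RefSeq start (build GRCm38.p6, 5′ to 3′ on the gene's strand). Capitals mark the core of the TCF/LEF recognition sequence, searched as CTTTGA and CTTTGT on both strands.
Fzd1, chr5:4758217-4758466, minus strand: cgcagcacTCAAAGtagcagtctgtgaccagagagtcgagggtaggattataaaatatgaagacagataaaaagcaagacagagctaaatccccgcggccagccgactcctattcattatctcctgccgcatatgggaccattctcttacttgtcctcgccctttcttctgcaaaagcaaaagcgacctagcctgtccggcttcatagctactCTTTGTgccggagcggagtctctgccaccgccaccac
Wif1, chr10:121033754-121034003, plus strand: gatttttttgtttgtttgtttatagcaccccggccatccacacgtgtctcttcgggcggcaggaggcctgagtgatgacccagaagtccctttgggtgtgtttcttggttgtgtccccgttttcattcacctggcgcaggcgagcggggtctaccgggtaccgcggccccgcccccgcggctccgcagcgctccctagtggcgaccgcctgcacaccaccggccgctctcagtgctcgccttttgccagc
Fzd4, chr7:89404116-89404365, plus strand: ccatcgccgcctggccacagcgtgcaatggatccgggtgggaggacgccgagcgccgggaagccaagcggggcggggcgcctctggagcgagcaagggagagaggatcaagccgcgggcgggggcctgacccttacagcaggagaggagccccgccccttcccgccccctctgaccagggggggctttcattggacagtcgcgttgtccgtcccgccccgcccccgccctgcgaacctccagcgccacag
Dkk2, chr3:132085042-132085291, plus strand: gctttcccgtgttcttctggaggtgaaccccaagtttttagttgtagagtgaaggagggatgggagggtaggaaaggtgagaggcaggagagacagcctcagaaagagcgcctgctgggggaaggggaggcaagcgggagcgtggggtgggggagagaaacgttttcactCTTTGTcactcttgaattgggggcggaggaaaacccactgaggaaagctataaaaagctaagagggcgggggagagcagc
The Fzd1 promoter held 2 matches, Dkk2 held 1, and Wif1 and Fzd4 held none in this window. Over the 30 promoters that the RefSeq table lists for 27 of the 41 genes, 8 (26.7%) held a match, beside 27.6% of the 32851 promoters in the table. The dinucleotide CG occurred 12 times in Fzd1, 21 in Wif1, 25 in Fzd4 and 7 in Dkk2, and the median was 21.5 over the 30 promoters and 6 over all. A match describes the letters alone.

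Of the ligands, 8 lie in 4 neighbouring pairs on mm10, with Wnt6 and Wnt10a 6193 bases apart on chromosome 1 (chr1:74771892-74785322 and chr1:74791516-74804179), Wnt1 and Wnt10b 11706 bases apart on chromosome 15, Wnt3a and Wnt9a 16175 and Wnt3 and Wnt9b 24328 bases apart on chromosome 11. In SyS-like cells the members of a pair differed in level, with Wnt6 at 43.0 and Wnt10a at 7.48 CPM, Wnt3 at 19.2 and Wnt9b at 0.545, and Wnt9a at 7.41 and Wnt3a at 0.460 CPM on average. Wnt1 and Wnt10b had close means, at 2.43 and 2.29 CPM. Wnt2b and Fzd3 are overlapped by another gene on their own strand, so their counts may be split with it.

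Other genes of the pathway, 54 in 6 lists, were counted in the same fits. In SyS-like against pericyte-like cells 24 were higher and 10 lower of 53 tested, against endothelial-like cells 29 and 8, and against macrophage-like cells 41 were higher, beside the shares of all genes given above. The R-spondin axis, whose secreted R-spondins keep Frizzled at the membrane through Lgr receptors, had 7 of 8 tested genes higher in SyS-like than in pericyte-like cells, 6 against endothelial-like and 7 against macrophage-like cells, beside 21.0%, 30.3% and 36.7% of all genes. Rspo3 was at 35.4 (BP 1), 20.1 (BP 2), 13.0 (MP), 42.7 (MP+BP) and 133 CPM (PD+MP) in SyS-like and 0 to 4.11 CPM in pericyte-like cells, a log2 fold change of 3.87 ± 0.37, adjusted p = 4.58e-06 (edgeR), and Lgr5 at 379 (BP 1), 436 (BP 2), 311 (MP), 449 (MP+BP) and 246 CPM (PD+MP) in SyS-like and 6.86 to 17.8 CPM in endothelial-like cells (4.69 ± 0.20, adjusted p = 1.69e-07, edgeR). Lgr6 was 4.84 ± 0.24 on the log2 scale above endothelial-like cells.

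Among the 6 feedback and target genes, SyS-like cells were higher in 2 and lower in 3 against pericyte-like cells, higher in 2 and lower in 2 against endothelial-like cells, and higher in 6 against macrophage-like cells. Of all genes, 21.0%, 30.3% and 36.7% were higher and 15.4%, 22.8% and 26.8% lower, so the vascular counts of so few genes describe little. Their median log2 fold change was -0.72, -0.06 and 3.37 in these comparisons, beside 0.18, 0.17 and 0.24 over all genes. The genes named next were picked by the size of their fold change and do not stand for the list. Sp5, a direct target, rose by log2 3.71 ± 0.65, adjusted p = 0.000697 over pericyte-like cells (edgeR), and Lef1, a TCF/LEF factor and target, by 4.75 ± 0.23, adjusted p = 3.1e-08 over macrophage-like cells (edgeR). Lef1 levels were 242 (BP 1), 184 (BP 2), 104 (MP), 352 (MP+BP) and 26.3 CPM (PD+MP) in SyS-like and 54.4 to 219.9 CPM in endothelial-like cells. Of the binders, Sostdc1 was higher in SyS-like cells than in both vascular classes (log2 5.84 ± 0.68 over pericyte-like and 5.76 ± 0.56 over endothelial-like cells). Daam2, a polarity effector, was lower in SyS-like than in pericyte-like cells (-5.60 ± 0.50, adjusted p = 2.77e-06, edgeR). Ror1, a Wnt5a receptor, was at 171 (BP 1), 135 (BP 2), 134 (MP), 141 (MP+BP) and 150.3 CPM (PD+MP) in SyS-like and 79.0 (BP 1), 112 (BP 2), 97.5 (MP), 129 (MP+BP) and 106 CPM (PD+MP) in pericyte-like cells. It was above macrophage-like cells by log2 4.76 ± 0.23, adjusted p = 3.26e-08 in SyS-like cells and above endothelial-like cells by 3.36 ± 0.21, adjusted p = 2.12e-08 in pericyte-like cells (edgeR), and Prickle2 was above macrophage-like cells in SyS-like cells by log2 5.0013 ± 0.29. Between the vascular classes 19 of the 54 genes were higher and 9 lower in pericyte-like cells (38 tested), beside 23.3% and 22.7% of all genes, with Ror2 and Daam2 higher (3.79 ± 0.31 and 4.08 ± 0.25) and Cthrc1, a Wnt cofactor, lower (-3.80 ± 0.37, log2 with SE).

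Sending and receiving were next counted per cell, after thinning each cell to 3000 UMIs and leaving out shallower cells (160 to 1074 SyS-like, 48 to 168 macrophage-like, 22 to 215 endothelial-like and 5 to 127 pericyte-like cells per tumour). A ligand UMI was then seen in 50.3% to 80.4% of SyS-like cells over the 5 tumours, 22.7% to 38.6% of pericyte-like, 3.39% to 15.8% of endothelial-like and 5.99% to 11.7% of macrophage-like cells. A Frizzled UMI was seen in 79.7% to 85.3%, 30.7% to 38.9%, 48.0% to 52.7% and 11.4% to 17.3% of them. Without thinning the SyS-like shares were 77.5% to 95.1% for a ligand and 89.2% to 96.3% for a Frizzled gene, and those of macrophage-like cells 10.4% to 17.6% and 20.4% to 32.7%. Both a ligand and a Frizzled UMI were seen in 43.2% to 65.1% of thinned SyS-like cells, close to the product of the separate shares (42.2% to 64.8%). Macrophage-like cells give the level that free RNA and any own expression reach together, at a median depth of 5332 UMIs against 9301 in SyS-like cells before thinning.

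The second question was how the genes varied with the tumour label in SyS-like cells. Fzd1 and the co-receptors differed little, while several ligands and antagonists differed strongly. Of the 38 genes, 21 had their lowest level in PD+MP and 9 in MP, and 15 differed more than 5-fold between the highest and the lowest tumour. The BP tumours lay within 1.5-fold of each other for 32 genes, which is the only replicate spread available. The exceptions were Wnt8b, Wnt16, Fzd4, Dkk2, Sfrp2 and Sfrp4. The matching shares over all genes were not counted, so these counts do not tell a trait of these genes from one of the tumour.

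For the 3 tumours with BP in the label against MP and PD+MP, no gene of the 41 passed the edgeR threshold in either direction, with 39 tested, and neither did any of the 20840 genes tested (0% higher and 0% lower). Before adjustment, 11 of the 39 had p under 0.05 in the higher and 1 in the lower direction (1091 and 988 of all genes). DESeq2 called 6 of the 39 higher and 0 lower, beside 2.19% and 0.490% of all genes. On TMM-scaled levels, every BP-labelled tumour lay above both others for 15 of the 39 genes, beside 13.5% of all genes, and below both for 4, beside 15.3%. The 15 were 9 ligands, 2 Frizzled genes and 4 antagonists, and the 4 were all Frizzled genes.

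Wif1 had the clearest separation. From the levels given above, the 3 BP-labelled tumours ranged over 51.3 to 67.0 CPM and the other 2 over 7.19 to 10.1 CPM. The edgeR log2 fold change was 2.65 ± 0.25, adjusted p = 0.393 (95% interval 2.05 to 3.26). DESeq2 called it at 2.67 with adjusted p = 5.35e-17. Among ligands, Wnt10a had 11.7 (BP 1), 9.05 (BP 2), 2.67 (MP), 13.1 (MP+BP) and 0.871 CPM (PD+MP) and a log2 fold change of 2.59 ± 0.54, adjusted p = 0.461 (edgeR, 95% interval 1.27 to 3.92). Wnt7b had 14.96 (BP 1), 16.5 (BP 2), 4.83 (MP), 13.2 (MP+BP) and 2.26 CPM (PD+MP) (1.9999 ± 0.40, adjusted p = 0.461, edgeR), and Wnt3 in the same direction had 1.95 ± 0.43, adjusted p = 0.461 (edgeR). Wnt6 (1.61 ± 0.47), Wnt5a (1.01 ± 0.35), Wnt10b (1.92 ± 0.76), Wnt9b (2.23 ± 0.66), Wnt8a (2.01 ± 0.64) and Wnt3a (0.43 ± 0.46) also had no overlap between the sides (log2 with SE). DESeq2 called Wnt3, Wnt7b, Wnt10a, Wif1, Sfrp1 and Fzd9. Sfrp1 and Fzd9 were led by the BP tumours alone, with MP+BP at 1.31 and 0.449 CPM.

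After TMM scaling, Fzd1, Fzd2, Fzd3 and Fzd4 lay lower in every BP-labelled tumour than in MP and PD+MP. The edgeR log2 fold changes were -0.30 ± 0.18, -0.69 ± 0.33, -0.31 ± 0.19 and -2.11 ± 0.64, with adjusted p from 0.461 to 0.585. Fzd2 stood at 21.3 (BP 1), 19.8 (BP 2), 45.6 (MP), 40.1 (MP+BP) and 36.6 CPM (PD+MP), where MP+BP lay above PD+MP on this plain CPM scale and both BP tumours were lowest. Lrp5 and Lrp6 differed by -0.04 ± 0.20 (-0.54 to 0.45) and -0.14 ± 0.24 (-0.73 to 0.45), and Frzb by -0.12 ± 0.22 (-0.67 to 0.43). Single tumours stood out for 3 genes, with Dkk2 in MP+BP, Fzd4 in PD+MP and Wnt8b in MP 11.5, 4.45 and 3.39 times above the next tumour. Without MP, 4 genes were called higher and 1 lower by edgeR, namely Wif1, Wnt10a, Wnt7b and Wnt10b higher and Fzd4 lower, beside 1.65% and 1.02% of all genes. PD+MP was then the lone tumour on its side and was assumed to vary like the others. Label and animal cannot be told apart in 5 tumours.

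**Figure D3:**
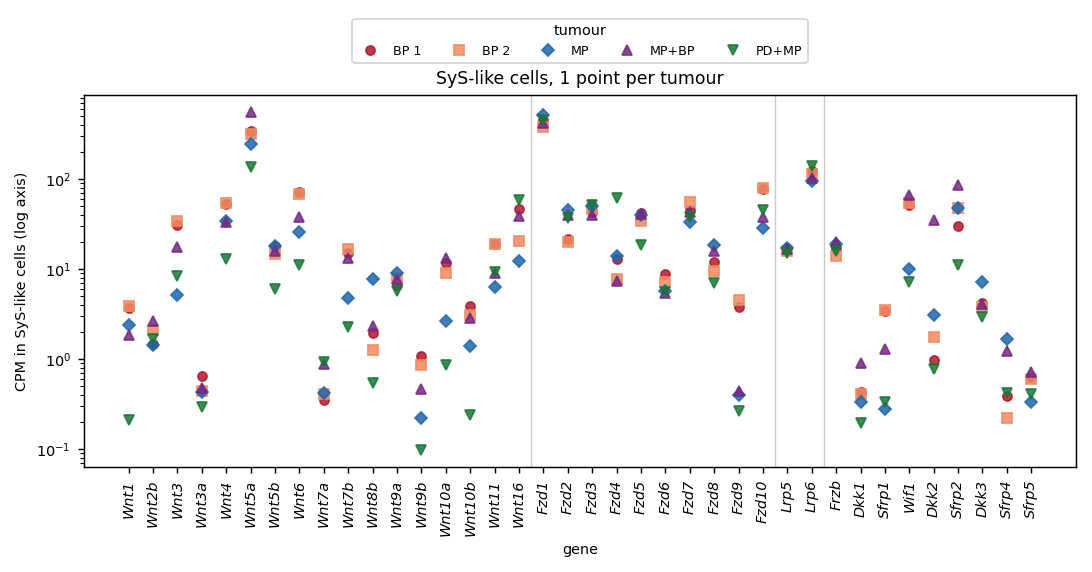
CPM in SyS-like cells on a log axis for the 38 genes with at least 100 UMIs, with 1 point per tumour. Fzd1, Lrp5 and Lrp6 points lie close together, while Wif1 splits into BP 1, BP 2 and MP+BP (51.3 to 67.0 CPM) and MP and PD+MP (7.19 to 10.1 CPM).

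SyS-like cells formed 18 clusters, and levels were compared between clusters with at least 20 cells in the same tumour. The highest cluster exceeded the median cluster of its tumour 1.03-fold to 1.35-fold for Fzd1, 1.27-fold to 1.56-fold for Lrp6 and 1.35-fold to 1.87-fold for Wnt5a, the lowest and highest of the 5 tumours. For Wif1 it was 1.11-fold to 6.84-fold and for Frzb 2.80-fold to 11.5-fold. Clusters were made from other genes of the same cells, so these values are given with no test. In 8 clusters at least 3 tumours had 20 or more cells, which allows a cluster to be set beside the other SyS-like cells of the same tumour.

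Cluster 5, led by Stmn2, Cped1, Kcnma1, Col23a1 and Coch, had 1859 cells, spread over all 5 tumours, and was high in the ligands Wnt16 and Wnt9a. Wnt16 was at 97.9 against 44.6 CPM in BP 1, 104 against 17.0 CPM in BP 2, 178 against 10.8 CPM in MP, 144 against 28.2 CPM in MP+BP and 96.3 against 58.4 CPM in PD+MP, the cluster set against the other SyS-like cells. Wnt9a was at 51.6 against 5.45 CPM in BP 1, 79.8 against 5.16 CPM in BP 2, 19.0 against 8.90 CPM in MP, 12.3 against 7.22 CPM in MP+BP and 26.8 against 5.57 CPM in PD+MP. The antagonists Sfrp2 and Frzb were also higher. Sfrp2 was at 120.2 against 27.5 CPM in BP 1, 185 against 41.9 CPM in BP 2, 92.0 against 47.4 CPM in MP, 144 against 79.3 CPM in MP+BP and 175 against 9.56 CPM in PD+MP, and Frzb was 2.57 to 5.93 times the level of the other cells. Fzd5 and Wif1 were lower in the cluster in 5 of 5 tumours, at 0.249 to 0.595 and 0.348 to 0.877 times the other cells. The cluster had 4 SyS naming markers and 2 of the next class, a median of 5498 UMIs, and 52.8% of its cells were from MP+BP. Sfrp2, Wnt9a and Frzb in the cluster can be set beside the fibroblast-like cells of PD+MP, at 646, 51.2 and 0.883 CPM. Whether cells of that kind contribute to the cluster was not tested.

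Cluster 23, led by Mgp, Cartpt, Penk and Bmp5, had 464 cells and was higher in Frzb in 4 of 4 tumours (127 against 16.5 CPM in BP 1, 72.0 against 13.8 CPM in BP 2, 112 against 17.0 CPM in MP+BP and 44.6 against 15.5 CPM in PD+MP) and in Wnt9a (1.82 to 9.10 times). Cluster 11, led by Trpm3, Npnt and Cpvl and with Wif1 among its 10 leading genes, was 90.9% from MP+BP. There Wif1 was at 188 CPM against 44.0 in the other SyS-like cells of that tumour, and Dkk2 at 109 against 21.3 CPM. In BP 1 the 65 cells of the cluster had Wif1 at 7.24 against 51.7 CPM, the other direction. Cluster 24, led by Sst, had 250 cells in BP 2, 108 in MP+BP and under 20 in each other tumour. Its Wnt10a was 50.3 CPM in MP+BP, the highest of 10 clusters there, and 24.2 CPM in BP 2, where cluster 23 was highest at 49.5 CPM. Cluster 22, led by Ecrg4, Rbfox1 and Car3, was highest of 9 clusters in BP 2 for Fzd7, Wnt4 and Wnt6, and in MP+BP for Wnt4 but not for Fzd7 or Wnt6. In cluster 22 these 3 were 133, 95.5 and 129.9 CPM in BP 2 and 48.0, 47.1 and 29.4 CPM in MP+BP. Summed over tumours, clusters 23 and 24 came near cluster 5 in Wnt16 (111 and 109 against 127 CPM) and Wnt9a (27.0 and 32.2 against 36.2). For Sfrp2 they had 112 and 147 against 150 CPM, so these traits were not particular to cluster 5. The cluster names carry no more than their leading genes.

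**Figure D4:**
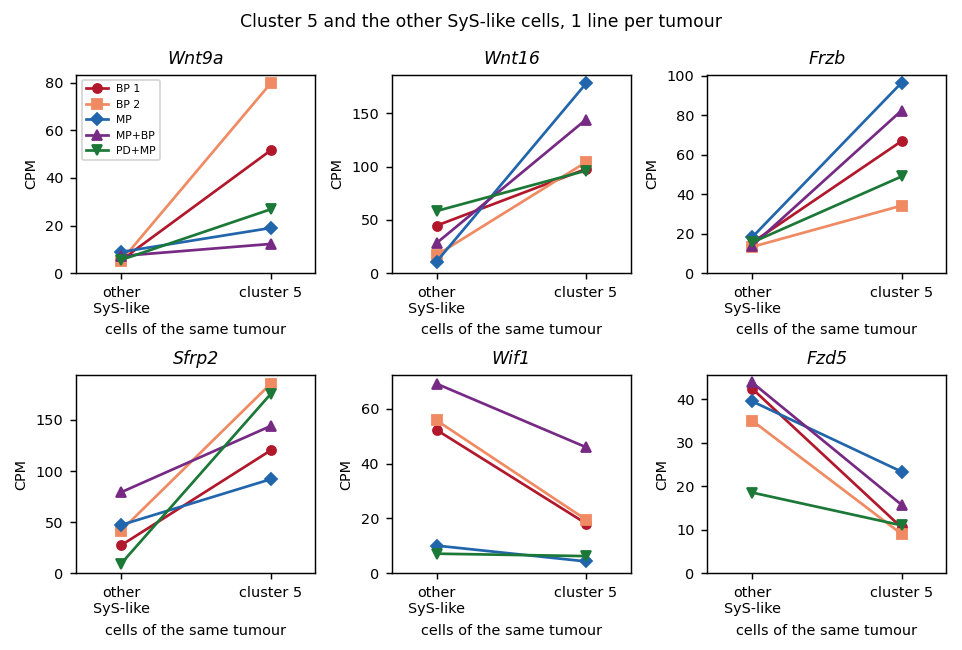
CPM of 6 genes in cluster 5 (right) and in the other SyS-like cells (left) of the same tumour, with 1 line per tumour and linear axes from 0. Wnt9a, Wnt16, Frzb and Sfrp2 go up in all 5 tumours, and Wif1 and Fzd5 go down.

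The last question was which of the genes went with the epithelial component. SyS-like cells with a UMI of at least 2 of 8 epithelial genes (Cdh1, Esrp1, Cldn4, Cldn7, Grhl2, Muc1, Krt7 and Krt19) were called epithelial-marked, and made up 8.69% in BP 1, 4.32% in BP 2, 1.99% in MP, 8.75% in MP+BP and 0.408% (25 cells) in PD+MP. Together these were 4.69% of SyS-like cells. Exactly 2 of the genes were seen in 930 of them and 3 or more in 412, while 4329 unmarked cells had 1. Marked cells were deeper, with medians of 15323 to 35986 UMIs against 6854 to 11490 in the others. Wnt4, Wnt5a, Wnt7b, Wnt10b and Fzd5 were higher in marked cells, and Wif1 and Dkk2 lower. Of the 41 genes 5 were higher and 2 lower in them (38 tested, edgeR with the tumour as a block), beside 6.34% and 10.1% of all genes.

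Wnt7b, a ligand of epithelia, was at 18.8 (BP 1), 25.4 (BP 2), 6.57 (MP), 19.2 (MP+BP) and 11.3 CPM (PD+MP) in marked cells and at 14.1 (BP 1), 15.7 (BP 2), 4.73 (MP), 11.6 (MP+BP) and 2.19 CPM (PD+MP) in the others, higher in 5 of 5 tumours (0.56 ± 0.11, adjusted p = 0.00355, edgeR). The 25 marked cells of PD+MP held 533205 UMIs of all genes, so levels there rest on few UMIs per gene. Fzd5 was also higher in 5 of 5, at 45.7 ± 9.44 against 33.6 ± 8.93 CPM (SD, n = 5), a log2 difference of 0.35 ± 0.07, adjusted p = 0.00317 (edgeR). Wnt10b (0.55 ± 0.16, adjusted p = 0.0288), Wnt4 (0.26 ± 0.07, adjusted p = 0.0192) and Wnt5a (0.20 ± 0.06, adjusted p = 0.0305) were higher by edgeR in 4 of 5 tumours after scaling, and Wnt10b had 0 UMIs in the marked cells of PD+MP. The call was lost for Wnt10b without BP 1, BP 2 or MP (largest adjusted p = 0.168, edgeR), for Wnt4 without BP 1, BP 2 or MP+BP (0.152) and for Wnt5a without BP 2, MP or MP+BP (0.222). Dkk2 was at 0.950 (BP 1), 0.504 (BP 2), 2.53 (MP), 12.7 (MP+BP) and 0 CPM (PD+MP) in marked cells and 0.998 (BP 1), 1.86 (BP 2), 3.098 (MP), 41.2 (MP+BP) and 0.792 CPM (PD+MP) in the others, so nearly all of it was in MP+BP (-1.46 ± 0.22, adjusted p = 0.000413, edgeR), and the call was lost without that tumour (adjusted p = 0.167, edgeR). Wif1 was lower in 4 of 5 tumours (-0.33 ± 0.10, adjusted p = 0.0322, edgeR), and differed most in MP+BP, with 45.2 CPM in marked and 72.6 CPM in other cells. That call was lost without MP or without MP+BP (adjusted p = 0.0672 and 0.338, edgeR).

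These calls depended on the settings. When the mark was set after thinning each cell to 3000 UMIs, 3 genes were higher and 1 lower, beside 3.07% and 2.10% of all genes. The calls for Wnt7b, Fzd5 and Dkk2 were lost there with log2 fold changes of 0.76, 0.38 and -1.14 (edgeR adjusted p = 0.112, 0.432 and 0.185), and that for Wnt5a with 0.02 (edgeR adjusted p = 0.985). Those for Wnt4 and Wif1 were kept. This mark left 3 marked cells in MP and 8 in PD+MP, so the fit used BP 1, BP 2 and MP+BP alone. The losses therefore cannot be put down to the mark rather than to fewer tumours. Without MP+BP 3 were higher and 0 lower by edgeR (2 lower at an unadjusted p under 0.05), beside 4.39% and 8.55% of all genes. By DESeq2 on all tumours 4 were higher and 1 lower, beside 9.14% and 12.0% of all genes, and without the tumour block 0 were called in either direction by edgeR (0 and 0 at an unadjusted p under 0.05), although the tumours pair the samples by design. Of the other pathway genes 7 were higher and 1 lower in marked cells in the main fit (53 tested), beside 6.34% and 10.1% of all genes. Rnf43, a ligase that removes Frizzled, was higher (0.64 ± 0.11, adjusted p = 0.000795), as were Ror1 (0.34 ± 0.05, adjusted p = 0.000455) and Daam1 (0.33 ± 0.06, adjusted p = 0.000898, log2, edgeR), and Cthrc1 was lower (-0.61 ± 0.14, adjusted p = 0.00915, edgeR), all in 5 of 5 tumours. For Cthrc1 the marked and other cells of BP 1 were nearly equal, at 6.57 and 6.59 CPM. In PD+MP its 1.88 against 3.48 CPM rests on 25 marked cells with 533205 UMIs.

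**Figure D5:**
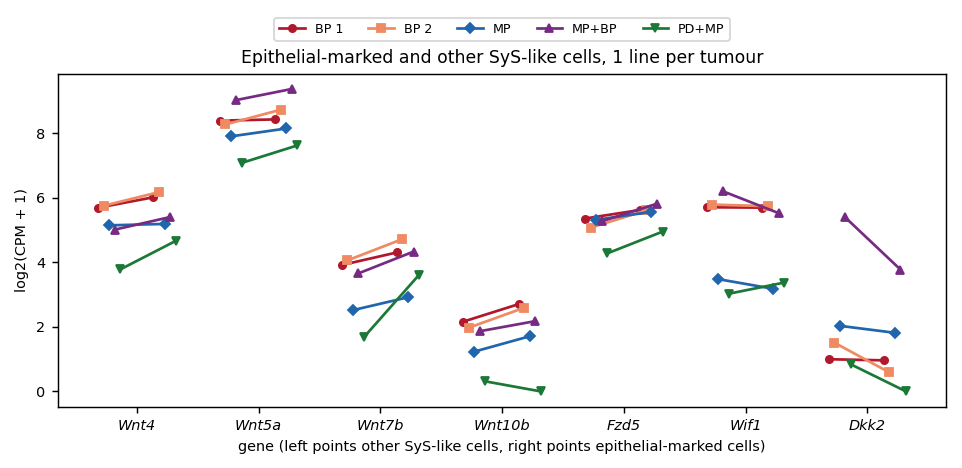
Levels of the 7 genes called between epithelial-marked (right points) and other (left points) SyS-like cells, as log2 of CPM plus 1, with 1 line per tumour. Wnt7b and Fzd5 go up in all 5 tumours, and the Dkk2 difference is widest in MP+BP. The right points of PD+MP rest on 25 cells.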

How the data were processed

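The 5 tumours were profiled by 10x Genomics 3′ single-cell RNA-seq. The deposited values are UMI counts per gene and cell barcode, made by the authors with Cell Ranger 7.2.0 per the file headers, and mm10 is the build in the submitters' processing notes. Cells with fewer than 750 genes (8488), with over 25% mitochondrial UMIs (666) or among the highest Scrublet doublet scores up to the expected share (2957) were left out. Cells were clustered by Leiden on 30 components of Pearson residuals (scanpy 1.11.5), and clusters were named X-like from at least 3 markers. UMIs were summed per tumour and class where at least 20 cells were present, which left 5 pairs in each class comparison. These sums were tested in edgeR 4.0.16 (quasi-likelihood, TMM, filterByExpr, Benjamini-Hochberg) and tumour was a blocking factor, because each pair of sums came from 1 tumour. The biphasic label was tested over 5 tumours without a block. DESeq2 1.42.0, total-count scaling, no filter, doublets kept, 1500 genes, other clustering, thinned sums, fibroblast-like cells added to the pericyte-like sums, and each tumour left out were alternatives. The scripts were tested on simulated data. Genes with at least 100 UMIs were described singly, and up to 4 other pathway genes per comparison were named by the largest fold change. The genes, lists and tests were chosen with earlier results of these data known. Replicates are single tumours, whose spread enters the intervals of the fold changes, and floors cover counting error only.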

Additional observations from a re-analysis of the deposited data

How the results depend on the processing

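The counts of genes called higher or lower held within 1.5 times under most alternatives. Thinning the SyS-like sums to the depth of the pericyte-like sums left 11 higher instead of 19. There 9476 instead of 17932 genes passed the filter, and genes still tested kept their calls. Against macrophage-like cells the 1 lower gene, Lrp6, turned to a log2 fold change of 0.21 with total counts only, where edgeR called 0 lower (0 at an unadjusted p under 0.05), and was also not called without a filter (0 lower, 1 at that p). Leaving out a tumour gave 0 to 1 lower there. Between pericyte-like and endothelial-like cells, 12 were higher with no filter and 12 with doublets kept, and 3 to 5 were lower when a tumour was left out, the lowest without MP. For the epithelial mark, DESeq2 called 1 lower, total counts only gave 10 higher and 1 lower, no filter 3 and 4, a mark of at least 3 genes 3 higher, and a mark set after thinning 3 and 1. Both of these other marks left under 20 marked cells in MP and in PD+MP, so their fits used BP 1, BP 2 and MP+BP alone. Leaving out a tumour gave 2 to 6 higher and 0 to 3 lower. Without the tumour as replicate block, 0 were higher and 0 lower by edgeR, with 0 and 0 at an unadjusted p under 0.05. For the biphasic label, DESeq2 called 6 higher, and leaving out a tumour gave 0 to 4 higher and 0 to 1 lower, the highest without MP. Causes were not tested. Total counts only moved the all-gene median (log2) to 0.43, 0.40 and 0.84 against pericyte-like, endothelial-like and macrophage-like cells, and higher against lower calls over all genes from 3774 and 2765 to 5746 and 2263, from 5568 and 4191 to 7372 and 3455 and from 6710 and 4906 to 10334 and 3103, and for the epithelial mark from 1162 and 1853 to 3046 and 1189. Depth limits the 38 pericyte-like cells of PD+MP and genes under 100 UMIs.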
